A study of Mus musculus with 12 samples.

Results

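Genes for proteins that guard mucosal surfaces against bacteria were followed in subcutaneous allograft tumors of mouse lung cancer cells with and without knockdown of *Filip1l*. The set holds 9 genes, taken by name from epithelial antibacterial and mucosal defence genes that were in the table of 15687 genes. The rule used no measured value, but the genes were proposed with earlier results of these data known. They are the C-type lectins *Reg3b*, *Reg3g* and *Reg1*, the flagella-binding *Lypd8*, the scavenger receptor *Dmbt1*, the antibody transporter *Pigr*, the iron-pathway proteins *Lcn2* and *Ltf*, and the antiprotease *Slpi*. All 9 passed the filter on low values.

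RNA from 12 tumors was sequenced, 6 from CTL tumors and 6 from *Filip1l*-KD tumors. All tumors grew from mTC11 cells (written mTc11 in the labels), a mouse lung cancer line, and both groups carried a lentiviral shRNA, scrambled in CTL and directed at *Filip1l* in the knockdown. The cells were puromycin-selected mixed clones injected under the skin of male C57BL6/J mice aged 8 weeks, and tumors were frozen 24 days later. The methods name more than 1 shRNA target for this line and do not say which one the sequenced tumors carried, so differences are those between these lines, and p-values measure only the spread between these tumors.

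*Filip1l* itself was measured at 2311 ± 211 normalized counts in CTL and 1924 ± 165 in *Filip1l*-KD tumors (SD, n = 6 each), a log2 difference of -0.26 (limma, adjusted p = 0.00998), and the ranges of the groups overlapped. This is RNA of whole tumors, host cells included. By tissue staining, the paper reported less FILIP1L protein in allograft tumors of the knockdown cells. Reads on listed genes numbered 17834745 to 29502069 per CTL tumor and 25460564 to 32419578 per *Filip1l*-KD tumor. A gene was called when limma gave an adjusted p under 0.05 over all genes and an absolute log2 fold change over 1, and 1596 genes, 10.2% of the table, met both, with 6.2% called higher and 3.97% called lower in *Filip1l*-KD. The median log2 fold change of all genes was 0.01.

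Mucosal epithelia keep bacteria at a distance with a layer of secreted and membrane-bound proteins. Lectins of the Reg family bind bacterial surface sugars, *Lypd8* coats flagella, *Pigr* carries polymeric IgA into the lumen, and lipocalin and lactoferrin withhold iron. In gut epithelium several of these genes are known to respond to IL-22, IL-17 and microbial signals.

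The *Reg* genes lie close together on chromosome 6 of GRCm38, *Reg3b* at chr6:78370657-78373466 on the plus strand, *Reg1* at chr6:78422711-78428667 on the plus strand and *Reg3g* at chr6:78466269-78468872 on the minus strand. Because these neighbours were all higher in *Filip1l*-KD, the sequence from 150 bases before each RefSeq start (GRCm38.p6) is shown, 5′ to 3′ on the strand of the gene and stopped short of any exon in GENCODE, with matches to the searched motifs TATAAA, TTCNNNGAA and TGANTCA in capitals. The *Reg3b* and *Reg1* windows lie inside the longer gene models of GENCODE, so that *Reg3b* is shown to -25, 1 base short of the end of its TATAAA, *Reg1* to -54 and *Reg3g* to -1.
Reg3b, chr6:78370735-78370860, plus strand: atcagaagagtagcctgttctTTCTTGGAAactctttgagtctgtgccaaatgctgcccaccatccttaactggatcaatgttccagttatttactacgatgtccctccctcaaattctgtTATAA
Reg3g, chr6:78468875-78469024, minus strand: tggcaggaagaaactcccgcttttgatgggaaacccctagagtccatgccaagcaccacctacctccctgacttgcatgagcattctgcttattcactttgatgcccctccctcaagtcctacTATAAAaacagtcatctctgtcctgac
Reg1, chr6:78425833-78425929, plus strand: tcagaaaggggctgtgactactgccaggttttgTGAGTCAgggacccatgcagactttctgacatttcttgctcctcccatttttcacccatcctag

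Over the full 150 bases all 3 windows held TATAAA at nearly the same place, starting at -29 in *Reg3b*, -27 in *Reg3g* and -30 in *Reg1*, and 1.99% of the 32851 RefSeq promoters held it on the same strand with a start between -40 and -20. The full *Reg3b* and *Reg3g* windows were identical at 107 of 154 aligned positions (69.5%), against 54.8% for *Reg3b* and *Reg1* and 53.9% for *Reg3g* and *Reg1*. The STAT letters TTCNNNGAA matched at -129 to -121 of *Reg3b*, and 7.02% of promoters held them within 250 bases upstream on either strand. The AP-1 letters TGANTCA matched at -117 to -111 of *Reg1*, against 6.75% of promoters. Over the same 250 bases, the CDX letters TTTATNG matched in *Reg3g*, once at -161 and once overlapping TATAAA at -28, and in *Lcn2* at -61, against 9.81% of promoters. The C/EBP letters TTGCNNAA matched in *Lcn2* at -216, *Ltf* at -75 and *Slpi* at -241, against 9.56%. None of the 9 entries for the 8 genes with a promoter in the RefSeq table held the NF-kB motif searched, which 0.356% of promoters held. Such matches describe letters, not binding.

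Of the 9 genes, 7 were called, all higher in *Filip1l*-KD, beside 6.2% of all genes. In those same 7 every *Filip1l*-KD tumor lay above every CTL tumor, which held for 10.6% of all genes. As the set was proposed with earlier results known, these counts describe it and do not test for an excess. The median log2 fold change of the 9 genes was 2.22. *Ltf* and *Slpi* were not called.

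**Figure D1:**
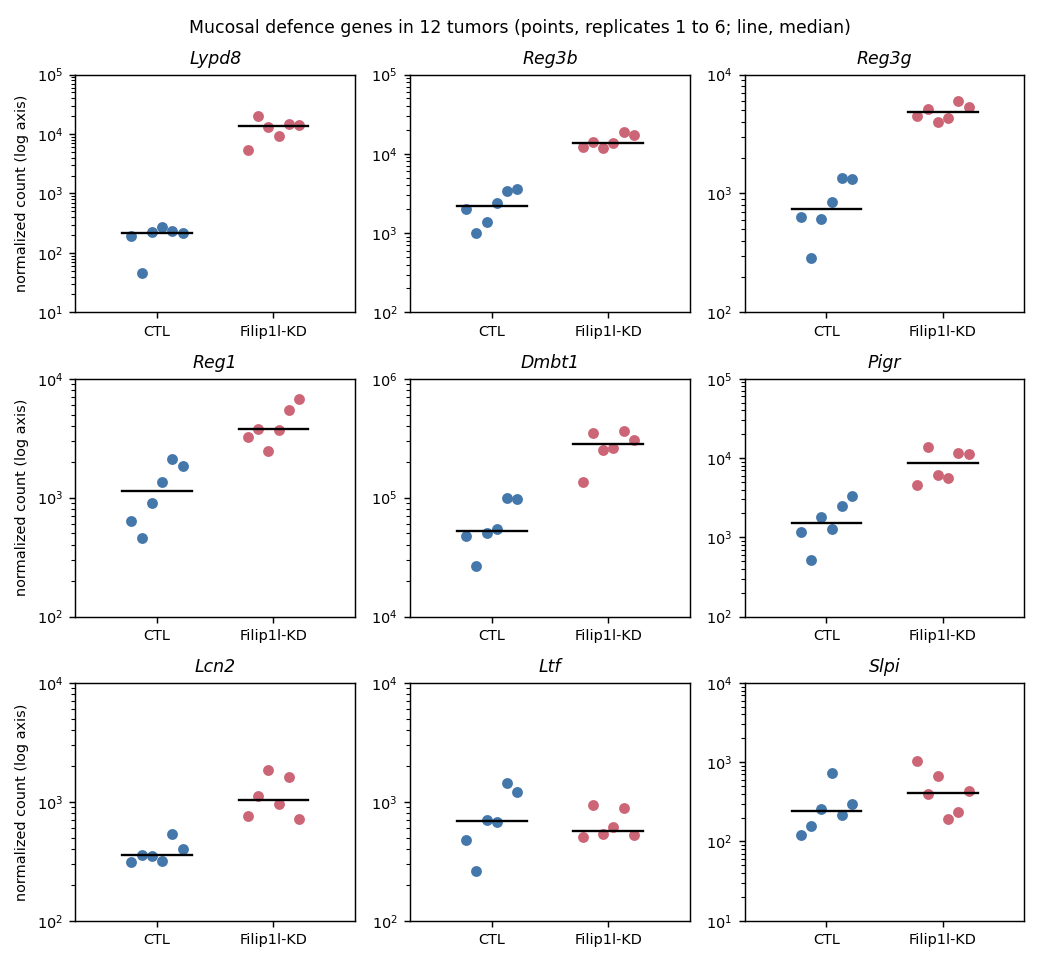
Normalized count on a log axis (vertical) of each gene in the 6 CTL and 6 Filip1l-KD tumors, 1 point per tumor in replicate order and a line at the group median. The groups do not overlap in 7 panels and do in Ltf and Slpi; CTL replicates 5 and 6 are the highest CTL tumors in the panels of the Reg genes, Dmbt1, Pigr, Lcn2 and Ltf.

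*Reg3b* encodes a secreted lectin that binds bacterial cell walls. Its normalized count was 1012 at the lowest, 2191 at the median and 3581 at the highest in CTL, and 11987, 13858 and 18581 in *Filip1l*-KD. The lowest *Filip1l*-KD tumor stood 3.35 times above the highest CTL tumor. *Reg3b* rose 6.93-fold, a log2 fold change of 2.79 ± 0.27 (SE, limma, adjusted p = 2.3e-06).

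*Reg3g* encodes a related lectin directed mainly at Gram-positive bacteria. It ranged from 289 through a median of 743 to 1346 in CTL and from 4019 through 4812 to 5971 in *Filip1l*-KD. Again no tumor of one group fell within the range of the other, and the difference was 2.70 ± 0.30 on the log2 scale (SE, limma, adjusted p = 8.1e-06). Spread within *Filip1l*-KD was narrow for both lectins, with a coefficient of variation of 18.6% for *Reg3b* and 15.2% for *Reg3g*, against 45.7% and 50.3% in CTL.

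*Reg1*, a secreted member of the same family best known from pancreas and gut, had the smallest fold change of the 3 *Reg* genes. Its normalized counts were 457, 1136 and 2115 (lowest, median, highest) in CTL and 2485, 3754 and 6758 in *Filip1l*-KD. The groups were narrowly apart, since the lowest *Filip1l*-KD tumor, replicate 3, was 1.17 times the highest CTL tumor, replicate 5. The log2 fold change was 1.92 ± 0.35 (SE, limma, adjusted p = 5.8e-04).

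The ratio of *Reg3b* to *Reg3g* within a tumor needs no scaling between tumors. It was 2.29 to 3.50 in CTL, with a median of 2.74, and 2.73 to 3.24 in *Filip1l*-KD, with a median of 3.05. The groups overlapped, and the mean log2 ratio differed by 0.10 (exact two-sided permutation test, n = 6 each, p = 0.359). The transcripts of the genes shared no identical run longer than 35 bases, and the authors counted only unique hits.

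*Lypd8* encodes a membrane-anchored protein of the large intestine that binds flagella and hinders motile bacteria from reaching the epithelium (chr11:58379043-58390728, plus strand). In CTL its normalized count was 45.5 in replicate 2 and between 195 and 274 in the other tumors, with a median of 219. In *Filip1l*-KD it was lowest in replicate 1, at 5361, had a median of 13814 and reached 20119 in replicate 2. The lowest *Filip1l*-KD tumor was 19.6 times the highest CTL tumor. The log2 fold change of 6.09 ± 0.40 (SE, limma, adjusted p = 1.0e-07), or 68.1-fold, was number 3 among the rises of all genes. The 48 reads of CTL replicate 2 were the fewest behind any value of the 9 genes.

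*Dmbt1* encodes a large glycoprotein of scavenger receptor repeats that aggregates bacteria (chr7:131032053-131121630, plus strand). It had the highest values of the set, at 26874, 52319 and 100150 normalized counts in CTL (lowest, median, highest) and 134960, 284130 and 362350 in *Filip1l*-KD. The gap was small beside these spreads, as the lowest *Filip1l*-KD tumor was 1.35 times the highest CTL tumor. *Dmbt1* rose by 2.22 ± 0.31 on the log2 scale (SE, limma, adjusted p = 6.3e-05). Without correction for length, its normalized count ranked between 7 and 77 among all genes in CTL tumors and between 1 and 3 in *Filip1l*-KD tumors. Its repeats resemble one another, so reads that fit several places would be lost from a count of unique hits, and no promoter sequence was printed for it. The gene lies within the span of *Fgfr2* on the opposite strand, with 0 *Fgfr2* exons inside the *Dmbt1* span, and *Fgfr2* was at a log2 fold change of -0.05 (limma, adjusted p = 0.840).

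The 9 genes together made up 0.113% to 0.421% of the normalized counts of a CTL tumor and 0.651% to 1.50% of a *Filip1l*-KD tumor. *Dmbt1* alone gave 80.7% to 89.7% of that sum. Per kilobase of exon, *Dmbt1* and *Reg3b* held the first places in both groups. In CTL the median order went on with *Reg1*, *Pigr*, *Reg3g*, *Slpi*, *Ltf*, *Lypd8* and *Lcn2*, and the ranges of each of these neighbours overlapped. In *Filip1l*-KD *Lypd8* came next after *Reg3b*, at a median of 10758 normalized counts per kilobase against 12135 for *Reg3b*, and the ranges of these 2 genes overlapped. It was followed by *Reg1*, *Reg3g*, *Pigr*, *Lcn2*, *Slpi* and *Ltf*. *Lypd8* thus went from place 8, at 171 per kilobase, to place 3.

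*Pigr* encodes the receptor that carries dimeric IgA across epithelial cells (chr1:130826684-130852249, plus strand). It was at 517, 1529 and 3355 normalized counts (lowest, median, highest) in CTL and at 4557, 8578 and 13790 in *Filip1l*-KD, again without overlap. The log2 fold change was 2.43 ± 0.40 (SE, limma, adjusted p = 2.4e-04). *Igha* and *Jchain*, which encode parts of that IgA, were not called by the same test. *Igha*, the IgA heavy chain, ranged from 33.0 to 151 in CTL and from 36.2 to 920 in *Filip1l*-KD, with a log2 fold change of 0.86 (limma, adjusted p = 0.383). *Jchain*, which joins IgA into dimers, ranged from 78.6 to 287 and from 68.5 to 599, with 0.62 (limma, adjusted p = 0.382). Of 11 measured partners of IgA transport, 1 was called higher, beside 6.2% of all genes, and 0 lower. It was the IgM heavy chain *Ighm* at 1.60 (limma, adjusted p = 0.0394). The call of *Ighm* was lost by limma with a replicate block (adjusted p = 0.0555), without trend (adjusted p = 0.0631), after rescaling to epithelial markers (0.70, adjusted p = 0.239) and in 7 of 12 fits without 1 tumor, CTL replicate 1, 2 or 5 or *Filip1l*-KD replicate 1, 2, 3 or 6 (adjusted p up to 0.0893).

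*Lcn2* encodes lipocalin, which captures bacterial siderophores (chr2:32384633-32388252, minus strand). Its normalized counts were 310, 355 and 533 in CTL and 723, 1046 and 1865 in *Filip1l*-KD. The highest CTL tumor, replicate 5, lay below the lowest *Filip1l*-KD tumor, replicate 6. The log2 fold change was 1.56 ± 0.22 (SE, limma, adjusted p = 6.7e-05).

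*Ltf* encodes lactoferrin, an iron-binding protein of secretions and neutrophil granules (chr9:111019271-111042767, plus strand). Normalized counts of *Ltf* were 263, 688 and 1444 in CTL and 505, 573 and 937 in *Filip1l*-KD. CTL replicates 5 and 6, at 1444 and 1214, were above every *Filip1l*-KD tumor, and CTL replicates 1 and 2, at 474 and 263, were below every one. The log2 difference was -0.09, with a 95% interval from -0.82 to 0.64 (limma, adjusted p = 0.864), and its sign turned without CTL replicate 5 (0.13) or CTL replicate 6 (0.08).

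The ratio of *Lcn2* to *Ltf* in a tumor was 0.328 to 1.37 in CTL, with a median of 0.487, and 1.21 to 3.50 in *Filip1l*-KD, with a median of 1.54. CTL replicate 2, at 1.37, was the only CTL tumor within the range of the other group. The mean log2 ratio was 1.65 higher in *Filip1l*-KD (exact two-sided permutation test, n = 6 each, p = 0.00433; the smallest p this design allows is 0.00216).

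**Figure D2:**
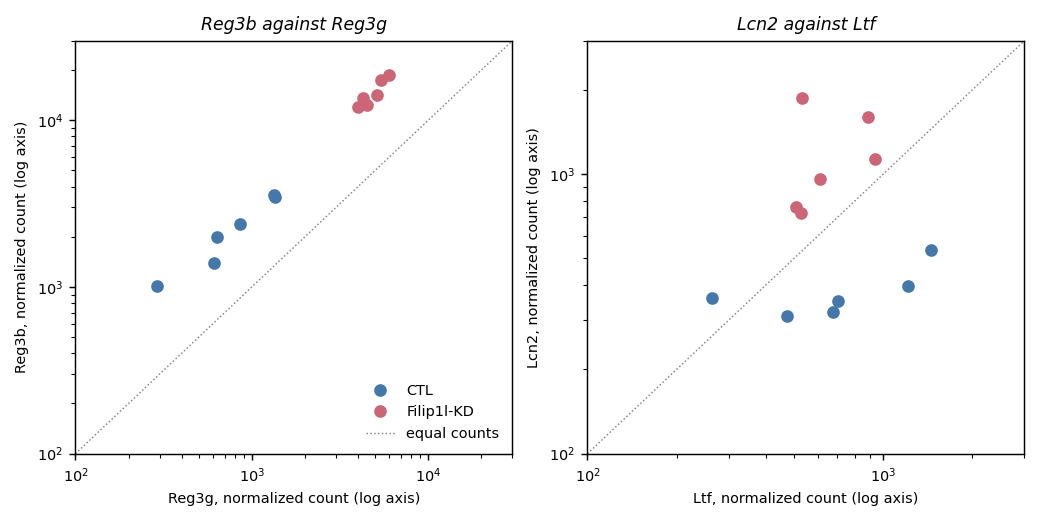
Reg3b against Reg3g (left) and Lcn2 against Ltf (right) in the 12 tumors, normalized counts on log axes, with a dotted line of equal counts. The Reg3b and Reg3g points of both groups follow 1 line parallel to the dotted one, whereas Lcn2 exceeds Ltf in all 6 Filip1l-KD tumors and in 1 CTL tumor.

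*Slpi* encodes an inhibitor of neutrophil elastase that also acts on microbes (chr2:164354070-164389095, minus strand). Normalized counts of *Slpi* were 120, 239 and 725 in CTL and 190, 412 and 1040 in *Filip1l*-KD, and the ranges overlapped widely. The log2 difference was 0.75, with a 95% interval from -0.20 to 1.71 (limma, adjusted p = 0.195). The highest CTL value came from replicate 4, and without that tumor the difference was 1.06 (limma, adjusted p = 0.0471) and met the thresholds. An interval this wide leaves room for a rise as large as that of *Lcn2*.

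**Figure D3:**
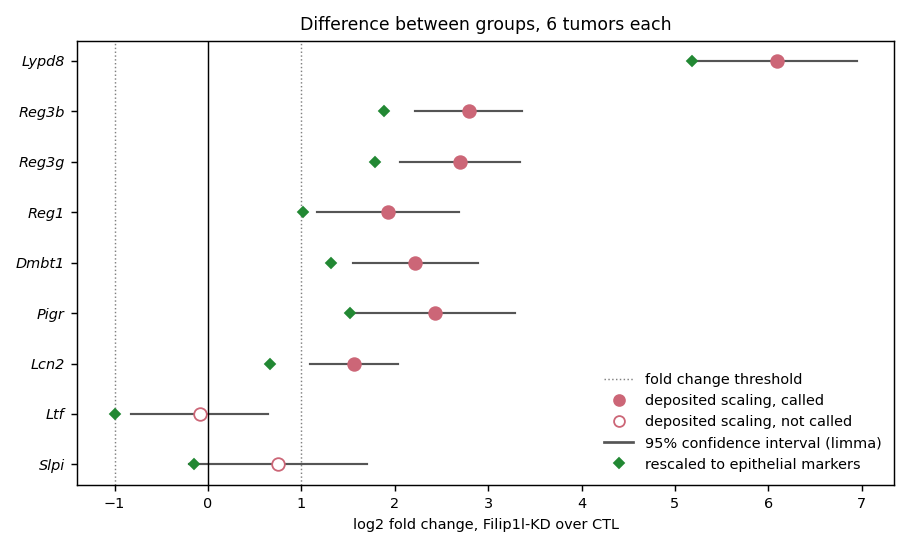
Log2 fold change of Filip1l-KD over CTL (horizontal) for each gene, with circles and 95% intervals from limma at the deposited scaling and diamonds after each tumor was rescaled to the same sum of 8 epithelial markers. Lypd8 stands apart at 6.09, the other called genes lie between 1.56 and 2.79, and the diamonds sit lower by a near-equal step for all 9.

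These are whole tumors, in which fewer cells of a type and less RNA per cell cannot be told apart. Of the 8 epithelial markers, 6 were called higher, among them *Cldn7* at a log2 fold change of 2.31, *Krt19* at 1.65, *Epcam* at 1.51 and *Cldn4* at 1.45. Not called were *Krt18* at 0.44 and *Cdh1* at 0.008, with *Cdh1* means of 28492 in CTL and 28678 in *Filip1l*-KD. The markers thus did not move as 1, and the rescaling below follows their sum. That summed level was 149757 to 196608 in CTL and 217523 to 397217 in *Filip1l*-KD. When each tumor was rescaled to the same epithelial sum, the median of all genes moved to -0.89, and the log2 fold changes were 5.19 for *Lypd8*, 1.89 for *Reg3b*, 1.79 for *Reg3g*, 1.52 for *Pigr*, 1.32 for *Dmbt1* and 1.02 for *Reg1*, all still called. On that scale *Lcn2* was at 0.66 (limma, adjusted p = 0.0101), under the fold threshold, *Ltf* at -0.99 and *Slpi* at -0.15. Relative to the moved median, *Lcn2* was at 1.55 and *Lypd8* at 6.08.

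The labelled lung origin was checked against marker genes. Of 6 measured lung epithelial markers 2 were called higher, including the surfactant gene *Sftpb* at 2.80, and the summed level of the list was 1018 to 2743 in CTL and 1870 to 3683 in *Filip1l*-KD. The largest part of that sum was *Sftpd*, with means of 1737 and 2068. Levels were low for *Nkx2-1*, with means of 17.2 and 39.4, and for *Sftpc*, with 9.76 and 29.2. Neither was called. The call of *Sftpb* was lost in 9 of 12 fits without 1 tumor (log2 fold change 2.15 to 3.34, adjusted p up to 0.106) and held only without CTL replicate 5 or *Filip1l*-KD replicate 1 or 4. The summed level of the intestinal list was 21091 to 26089 in CTL and 54408 to 106724 in *Filip1l*-KD, and 9 of its 12 genes were called higher, led by the brush-border enzymes *Sis* at 5.39 and *Alpi* at 5.32, the apolipoprotein *Apoa4* at 5.13 and the cadherin *Cdh17* at 2.46. Of 9 gastric markers 2 were called higher, *Gkn2* at 3.57 and *Gkn1* at 3.06, and 2 lower, *Sox2* at -3.50 and *Tff2* at -2.72. The summed level was 1094 to 5861 in CTL, where *Tff2* was the largest part (mean 2887), and 1179 to 4072 in *Filip1l*-KD. The call of *Gkn1* was lost in 9 of 12 such fits (adjusted p up to 0.104) and held only without CTL replicate 5 or 6 or *Filip1l*-KD replicate 1. The only pancreatic acinar marker measured, *Cela1*, was called at 2.30.

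*Lcn2*, *Ltf* and *Slpi* are also products of myeloid cells. Of 12 measured neutrophil markers, 8 were called higher, and the summed level was 1249 to 2070 in CTL and 1362 to 3942 in *Filip1l*-KD. The largest part of that sum was *Mmp9*, with means of 1076 and 765, not called at -0.66. The called genes included *S100a9* at 1.87, *Cxcr2* at 1.59, *S100a8* at 1.58 and *Csf3r* at 1.33. After rescaling to epithelial markers these 4 were under the fold threshold, at 0.97, 0.71, 0.68 and 0.43. That rescaling moved the median of all genes to -0.89, so these lower values do not describe neutrophils in particular. *Ngp*, a granule protein stored with lactoferrin, ranged from 0 to 7.47 in CTL and from 0 to 101 in *Filip1l*-KD, with means of 2.94 and 19.8 and a log2 difference of 0.89 (limma, adjusted p = 0.510). Of 9 macrophage markers 0 were called, and the list ranged from 16087 to 22582 in CTL and from 14106 to 25860 in *Filip1l*-KD. Skeletal muscle markers were called higher in 10 of 12, led by *Myh2* at 3.16, *Myh1* at 2.46, *Acta1* at 2.15 and *Actn3* at 2.14, with sums of 2659 to 13730 and 5909 to 101197. Of 8 skin markers 1 was called, *Lor* at -1.94 (sums 1285 to 4156 and 1753 to 4023), and of 9 fibroblast markers 0 were called, with sums of 161642 to 262808 and 75972 to 254829. The fibroblast sums were nonetheless lower in *Filip1l*-KD at the median, 118590 against 232769 in CTL. Only 1 of those 9 markers had a log2 fold change above 0, and the list's median was -0.52. The part of these cells in the levels of the 9 genes was not tested.

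Other antimicrobial genes of mucosae followed in part. Of 19 measured, 10 were called higher, beside 6.2% of all genes, and 1 lower, beside 3.97%, and the list's median log2 fold change was 1.44. This list too was chosen with earlier results known. Those called higher included *Duox2* at 3.31 and *Duoxa2* at 3.03, which make hydrogen peroxide at epithelial surfaces, the inflammasome sensor *Nlrp6* at 3.17 and the nitric oxide synthase *Nos2* at 2.78. The 1 called lower was *Bpifb1*, a secreted airway protein, at -3.77, with a mean of 254 in CTL and 17.9 in *Filip1l*-KD.

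Measured genes of IL-17, IL-22 and microbial sensing numbered 32, a list that mixes receptors, sensors and signalling parts with genes the pathway induces. Of these, 4 were called higher, beside 6.2% of all genes, and 0 lower, beside 3.97%, with a median of 0.26. The ligands *Il22*, *Il17a*, *Il17c* and *Il17f* were not analysed here. The called genes were the fucosyltransferase *Fut2* at 2.83, the chemokine *Cxcl5* at 2.41, the adaptor *Tifa* at 1.85 and the peptidoglycan sensor *Nod2* at 1.38. After rescaling to epithelial markers, which moved the median of all genes to -0.89, *Tifa*, at 0.95, and *Nod2*, at 0.48, were no longer called. A further 17 had an adjusted p under 0.05 with a smaller fold. These went both ways, from *Il1r1* at -0.81 (limma, adjusted p = 5.7e-05) to *Zc3h12a* and *Ccl20*, both at 0.88 (limma, adjusted p = 6.3e-06 and 0.0237). Among the key parts of the pathway, the IL-22 receptor chain *Il22ra1* was at 0.47 (limma, adjusted p = 0.0278), the NF-kB co-activator *Nfkbiz* at 0.37 (adjusted p = 0.0028), the feedback inhibitor *Socs3* at -0.31 (adjusted p = 0.0035) and the transcription factor *Stat3* at -0.02 (adjusted p = 0.862).

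Of 14 genes of iron handling, 1 was called, beside 10.2% of all genes, and the list's median was 0.38. The called gene was the transferrin receptor *Tfrc* at 1.54. It was at 0.63 and not called after rescaling to epithelial markers, which put the median of all genes at -0.89. Of 9 neutrophil proteases and their inhibitors, a list that holds *Slpi*, 1 was called higher, beside 6.2% of all genes, and 1 lower, beside 3.97%. They were *Serpinb1a* at 1.98 and the broad protease inhibitor *A2m* at -1.22, and the list's median was 0.75.

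**Figure D4:**
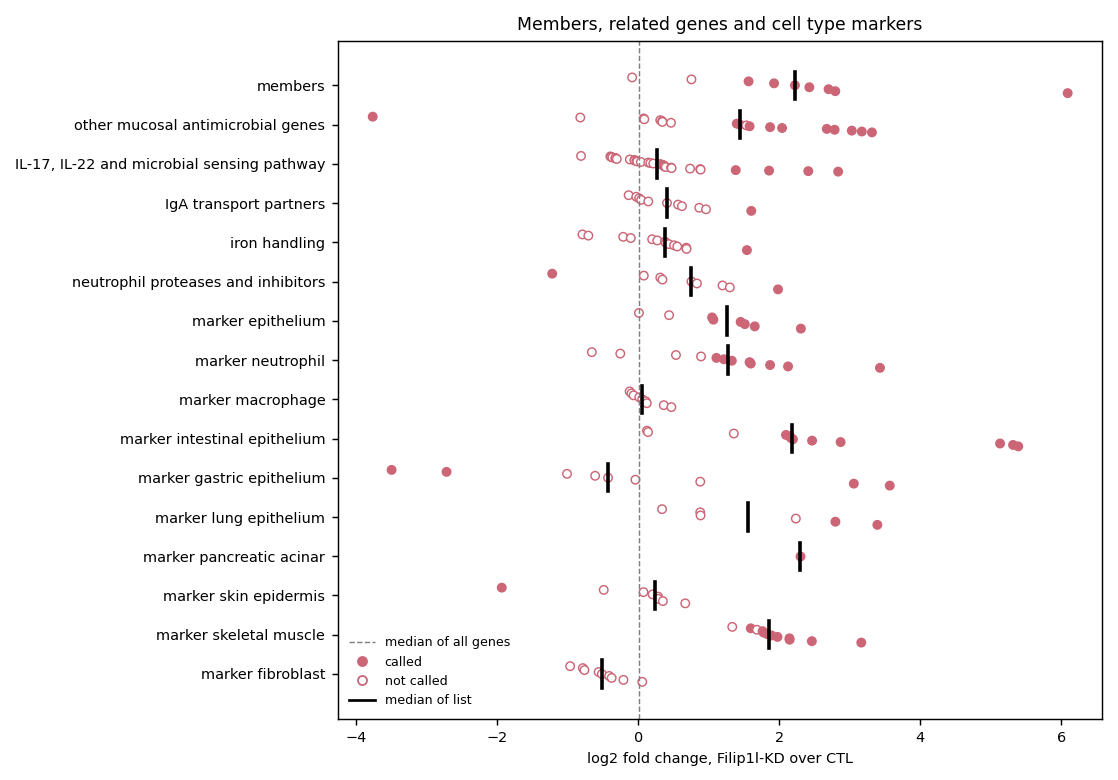
Log2 fold change of Filip1l-KD over CTL (horizontal) of every measured gene in the 9-gene set (labelled members), the related lists and the cell type marker lists, filled where called, with a bar at each list's median and a dashed line at the median of all genes. The set's median of 2.22 is near that of the intestinal markers at 2.18, and the IL-17 and IL-22 list sits near the dashed line at 0.26.

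Variation among tumors of 1 group followed shared lines. In CTL, replicate 2 was the lowest and replicates 5 and 6 the highest for *Reg3b*, *Reg3g*, *Reg1*, *Dmbt1*, *Pigr* and *Ltf*. Replicate 5 was also the shallowest library, with 17834745 reads, and replicate 6 the deepest of its group, with 29502069. In *Filip1l*-KD, replicate 1 was the lowest for *Lypd8*, *Dmbt1* and *Pigr*, and replicate 3 for the 3 *Reg* genes.

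Correlations were computed for the 36 pairs within each group, 72 in all, on log2 values, and the labels name no batch to split them by. In CTL 35 of 36 were positive and in *Filip1l*-KD 25 of 36. For Pearson's r by exact permutation, 14 of the 72 had an adjusted p of at most 0.05. Among them *Reg3g* with *Ltf* in CTL lay at 0.05 itself. *Reg3b* and *Reg3g* had r = 0.97 and Spearman's rho = 0.94 in CTL (exact permutation p = 0.0028 and 0.0167, adjusted 0.0400 and 0.120, n = 6), and r = 0.93 without the 2 tumors farthest from the median. In *Filip1l*-KD they had r = 0.92 and rho = 0.94 (exact permutation p = 0.0069 and 0.0167, adjusted 0.0462 and 0.120, n = 6), and r = 0.71 without the 2 farthest tumors. *Ltf*, though not called between groups, had r = 0.98 and rho = 0.94 with *Dmbt1* in CTL (exact permutation p = 0.0028 and 0.0167, adjusted 0.0400 and 0.120, n = 6), and r = 0.94 without the 2 farthest. In *Filip1l*-KD that pair had r = 0.70 (exact permutation p = 0.106, adjusted 0.253, n = 6). *Lypd8* had r = 0.87 and rho = 1.00 with *Pigr* in *Filip1l*-KD (exact permutation p = 0.0014 and 0.0028, adjusted 0.0400 and 0.100, n = 6), and r = 0.73 without the 2 farthest. In CTL these 2 genes had r = 0.77 (exact permutation p = 0.0958, adjusted 0.238, n = 6). No pair with *Slpi* or *Lcn2* reached an unadjusted p under 0.05 in either group. With 6 tumors no rank correlation passed the adjustment.

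**Figure D5:**
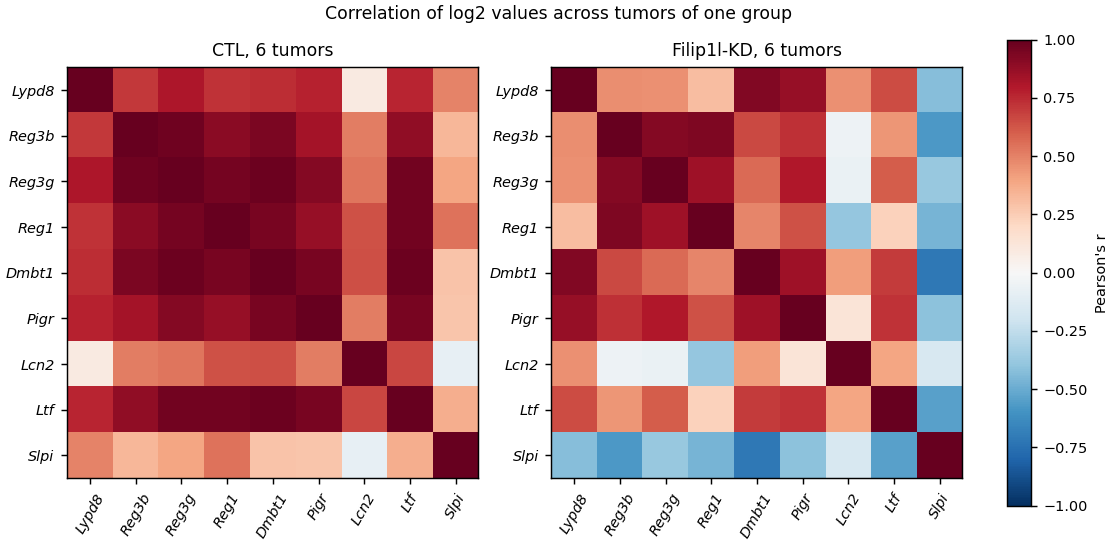
Pearson's r of log2 values for each pair of the 9 genes across the 6 CTL tumors (left) and the 6 Filip1l-KD tumors (right), from -1 in blue to 1 in red. The Reg genes, Dmbt1, Pigr and Ltf form a red block in CTL, and the row of Slpi is blue in Filip1l-KD.

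For each gene the most similar genes of the table were sought over the 12 tumors after removal of the group means, leaving aside genes whose mean was under 50 normalized counts. *Reg3b* and *Reg3g* were each other's closest gene, with r = 0.96, followed by *Map7* at 0.90 and *Fam83e* at 0.89 for *Reg3b*, and by *Map7* at 0.94 and *Cobl* at 0.92 for *Reg3g*. *Reg1* was closest to *Fam83e* at 0.92, *Map7* at 0.91 and *Reg3g* at 0.90. *Dmbt1* was closest to *Bcas1* at 0.96, *Fcgbp* at 0.96 and *Tff3* at 0.95, the last 2 known as products of goblet cells. *Lypd8* was closest to the mucin *Muc3* at 0.94, *Oit1* at 0.93 and *Clec2h* at 0.93, and *Pigr* to *Zbtb7c* at 0.95, *Ppp1r14d* at 0.94 and *Slc9a4* at 0.93. *Ltf* was closest to *Muc4* at 0.95, *Muc3a* at 0.92 and *Abcg5* at 0.92, and *Lcn2* to *Shox2* at 0.89, *Plin2* at 0.88 and *Zscan22* at 0.87. *Slpi* was closest to the immunoglobulin genes *Iglv1* at 0.96, *Igkc* at 0.95 and *Ighv14-3* at 0.92. These r describe the 12 tumors only, as the closest of many genes were picked.

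The summed marker lists were set beside the 9 genes in the same way. A sum follows its most abundant genes. In CTL these were *Tff2* (mean 2887) in the gastric list and *Sftpd* (mean 1737) in the lung list. For *Reg3b*, *Reg3g*, *Reg1*, *Dmbt1*, *Lypd8*, *Pigr* and *Ltf*, r was 0.72 to 0.90 with the gastric list, 0.62 to 0.89 with the lung list, 0.60 to 0.80 with the acinar gene *Cela1*, 0.35 to 0.68 with the epithelial list and 0.24 to 0.62 with the intestinal list. With the remaining lists r was below 0 for these 7 genes, from -0.70 to -0.40 with the neutrophil list. The neutrophil sum followed *Mmp9* most, a marker not called at -0.66, so its r does not describe neutrophil content. For *Slpi*, r was 0.57 with the neutrophil list, 0.53 with the macrophage list and 0.52 with the fibroblast list, so no 1 of these lists stood out, and 0.03 with the gastric list. For *Lcn2*, r was 0.42 with the lung list and -0.27 with the neutrophil list.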

How the data were processed

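Total RNA of 12 snap-frozen tumors was sequenced by the authors from poly(A)-enriched libraries. Per the methods and the submitters' processing notes, Trimmomatic 0.36 trimmed the reads, STAR 2.5.2b placed them on the mouse genome (mm10) and featureCounts of Subread 1.5.2 gave unique hits per gene. The deposited values are a normalized signal, gene counts that the authors divided by DESeq2 size factors, and are not corrected for gene length. All 12 tumors were grouped by their labels.

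The 9 genes and all lists were chosen with earlier results of these data known. Values were analysed as log2(normalized count + 1) with limma 3.58.1 (trend, Benjamini-Hochberg over 15687 genes) in R 4.3.3. Fold changes are on that log2 scale and understate low genes. The filter at a mean of 5 removed 0 genes. On simulated data for the same comparison with 15582 genes, 198 of 200 changed genes (log2 fold 2) and 2 of 15382 unchanged genes were called. The changed genes were drawn from those with a CTL mean of at least 50, and each gene varied independently. The simulation therefore does not describe recovery for low genes, smaller changes or variation that genes share between tumors. Permutation tests were exact and two-sided over 924 arrangements. In every tumor 100% of the values were whole multiples of the value of 1 read within 0.01 read, so counts were recovered and tested as alternatives: edgeR 4.0.16 called 1635 genes and DESeq2 1.42.0 called 1652.

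Besides the 9 genes, each list's called genes were named, up to the 4 with the largest change per direction at a mean of at least 50, with *Il22ra1*, *Stat3*, *Socs3*, *Nfkbiz*, *Jchain*, *Igha*, *Ngp*, *S100a8*, *S100a9* and *Nos2* wherever measured, and the 3 genes most like each of the 9. *Fgfr2* was named afterwards because it overlaps *Dmbt1*. Listed genes that were not measured were not analysed here. Positions came from GENCODE vM21 on GRCm38 (15655 of 15687 identifiers matched), and promoters from RefSeq, where 8 of the 9 genes had an entry. Python 3.11.15 with matplotlib 3.10.9 drew the figures. The number of tumors and the spread between them limit the precision.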

Additional observations from a re-analysis of the deposited data

Results flagged for a closer look

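In each group of 6 tumors the highest and lowest tumor was compared with its nearest neighbour by Dixon's criterion for 53 genes, 106 groups in all. A tumor stood apart in 8 groups, and chance marks about 1 in 20 groups.

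Among the 9 genes, *Lypd8* was low in CTL replicate 2, at 45.5 normalized counts where the other CTL tumors had 195 to 274. *Dmbt1* was low in *Filip1l*-KD replicate 1, at 134960 where the others had 253962 to 362350. Leaving these tumors out kept both genes called and higher.

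Among related genes and markers, *Filip1l*-KD replicate 1 was also low for *Fut2*, at 987, and for *Cdh17*, at 17184. *Cxcl5* was low in CTL replicate 3, at 390, and *S100a9* was high in CTL replicate 4, at 138. *Gkn1* was low in CTL replicate 2, at 0, and *Tff2* was high in *Filip1l*-KD replicate 5, at 1000.4.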

How the results depend on the processing

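The calls of *Lypd8*, *Reg3b*, *Reg3g*, *Reg1*, *Dmbt1* and *Pigr* held under every alternative run: other pseudocounts and filters, 3 rescalings, limma without trend, edgeR, DESeq2, removal of chromosome medians, a replicate block and leaving out each tumor. Rescaling to the epithelial markers left *Lcn2* at 0.66, under the fold threshold, turned *Slpi* to -0.15, *Il22ra1* to -0.43, *Nfkbiz* to -0.54, *Jchain* to -0.28 and *Igha* to -0.029, and called 6145 genes, 359 higher and 5786 lower, against 1596, with 973 and 623, as it moved the median of all genes to -0.89. Without 1 tumor the log2 fold changes were 5.71 to 6.32 for *Lypd8*, 2.58 to 2.95 for *Reg3b*, 2.43 to 2.87 for *Reg3g*, 1.68 to 2.12 for *Reg1*, 2.00 to 2.42 for *Dmbt1*, 2.12 to 2.66 for *Pigr*, 1.41 to 1.68 for *Lcn2*, -0.36 to 0.13 for *Ltf* and 0.49 to 1.06 for *Slpi*, which was called only without CTL replicate 4. *Stat3* ranged from -0.051 to 0.014. Genes called ranged from 1513 to 1712.

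Tumors of the 2 groups that share a replicate number did not deviate together (correlations from -0.269 to 0.0990), so the number was not taken as a pairing. With the replicate block 1554 genes were called and no call among the 9 genes changed, while the *Lcn2* to *Ltf* difference of 1.65 had an exact sign-flip p of 0.0625. Of the other named genes, *Ighm*, *Gkn1* and *Sftpb* were not called with the block, and rescaling to the epithelial markers ended 15 calls besides that of *Lcn2*.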
